A study of Mus musculus with 42 samples.

Results

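Squamous cell carcinomas of mouse skin were compared with papillomas of the group labelled high risk. All tumours came from Sencar mice, females that were 7 to 8 weeks old at initiation and were given DMBA, a mutagen that starts skin tumours, and TPA, a phorbol ester that promotes them. Both groups had the same strain and the same agents, and the labels name no transgene or engineered allele. The carcinomas were 6 samples and the high-risk papillomas 10, or 16 of the 42 arrays of the series. They were chosen by the group named in their titles. Of the other arrays, the 9 low-risk papillomas (10 arrays) and 6 normal skins on the same array design entered the fit, where they share in the estimate of the spread and in the filter that sets which probes were tested, and 10 tumours with no risk label lay on a second design. The tissue was whole tumour, and each RNA was hybridised in Cy3 against a universal mouse reference RNA in Cy5.

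Papillomas are benign outgrowths in which keratinocytes still mature towards a dead, cornified surface, and a small share of them progress to invasive squamous cell carcinoma. Maturing keratinocytes leave the basal layer, replace basal keratins by Krt1 and Krt10, and then crosslink repetin, loricrin, small proline-rich and late cornified envelope proteins into the cornified envelope. Carcinomas are known for the loss of this programme, for keratins of simple epithelia and for a stroma rich in matrix and macrophages.

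Values are given as log2 of sample over reference, each array centred on its median. This direction is likely rather than stated, and rests on the dyes in the labels and on keratinocyte genes. The median of 7 keratinocyte markers with a probe lay above 0 in 16 of 16 tumours, between 0.77 and 1.94 in carcinomas and between 1.28 and 4.62 in high-risk papillomas. Krt5, a keratin of basal cells, lay between 2.96 and 4.98 in the 4 carcinomas that measured it and between 1.98 and 6.73 in the papillomas. Of the other markers Krt14 had no probe named for it alone, and Trp63 was measured in only 2 carcinomas. In whole tumours, fewer cells of a type and less RNA per cell cannot be told apart. No label says whether samples of a group came from separate mice, and 3 pairs of high-risk papillomas (1 and 2, 3 and 5, 6 and 10) share a number in their labels, so p-values measure only the spread between these samples.

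The arrays themselves differed along with the groups. By the pattern of probes without a value the arrays were cut into 5 sets, a number set by choice. Pairs of arrays correlated at 0.13 to 0.71 within a set and at -0.10 to 0.28 between sets. These ranges overlap, so the sets are not sharply apart. Set 1 held carcinomas 1 to 4 and high-risk papilloma 5, and set 2 held carcinomas 5 and 6 and high-risk papillomas 6 to 9. Set 3 held only high-risk papillomas 1 to 4, and high-risk papilloma 10 lay in set 4 with 4 normal skins. The share of probes without a value averaged 7.47% ± 8.19 in carcinomas and 14.4% ± 6.87 in high-risk papillomas (SD, n = 6 and 10), with a two-sided exact permutation p of 0.0877 (adjusted over 3 array measures, 0.259). Without carcinoma 6 the same exact test gave 0.0107 (adjusted 0.032). The SD of the log2 values over probes lay between 0.56 and 1.05 in carcinomas and between 0.45 and 1.72 in high-risk papillomas (exact permutation p = 0.173), and the 4 papillomas of set 3 had 1.51 to 1.72. Carcinoma 6 differed from normal skin 1 by a median of only 0.065 on the log2 scale over 16718 probes. The next closest pair, high-risk papillomas 6 and 7, differed by 0.177. The correlation r across probes was 0.984 for the first pair and 0.719 for the second. These pairs were ranked by difference, and by r the second was not next, since carcinoma pairs within an array set reached 0.807. Carcinoma 6 was kept by its label. Values without an array set are given beside many results, and values without carcinoma 6 for the count of calls and for some lists.

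**Figure D1:**
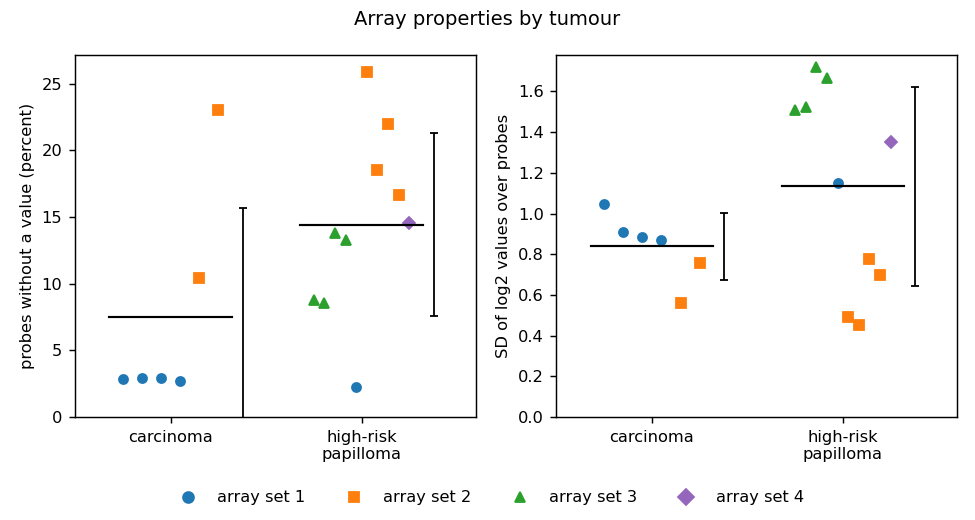
Share of probes without a value (left, percent) and SD of the log2 values over probes (right) on each of the 16 arrays, carcinomas left and high-risk papillomas right. Points are arrays marked by array set, lines are means and bars are SD. The 4 papillomas of set 3 have the widest spread, at 1.51 to 1.72, and no carcinoma lies in sets 3 or 4.

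Across 18901 probes tested with limma, 8 differed between carcinomas and high-risk papillomas at an adjusted p under 0.05 (0.0423%). The 4 higher in carcinomas (0.0212%) were Saraf, Plet1, Ppbp and Gsr. The 4 lower (0.0212%) were Lce1e, Ltb4r1, Irak1 and 1 probe with no gene name. At an unadjusted p under 0.05 lay 1983 probes (10.5%), 889 higher (4.7%) and 1094 lower (5.79%). Log2 changes were positive for 49.2% of all probes and negative for 50.8%, with a median of -0.01.

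Saraf, which shuts off the calcium entry that follows emptying of the endoplasmic reticulum, had a lowest level of 1.83, a median of 3.40 and a highest level of 3.80 in the 6 carcinomas, against -0.53, 0.22 and 1.32 in the 9 high-risk papillomas that measured it. The lowest carcinoma was carcinoma 5 and the highest papilloma was papilloma 5, and the groups did not overlap. The log2 change was 2.93 ± 0.49 (SE), or 7.63-fold, with an adjusted p of 0.0143 by limma. The carcinomas of set 1 lay 2.03 above the single papilloma of that set, and those of set 2 lay 2.54 above its papillomas. Of 20 genes of calcium entry and signalling, Saraf included, 2 lay higher and 0 lower at an unadjusted p under 0.05, and the list's median change was 0.13.

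Gsr, the glutathione reductase that returns oxidised glutathione to its reduced form, was measured in all 16 tumours. Its level was 0.74, 0.85 and 1.57 in carcinomas (lowest, median, highest) and -2.32, -0.43 and 0.17 in high-risk papillomas. Every carcinoma lay above every papilloma. Gsr rose by a log2 change of 1.65 ± 0.33 (SE), or 3.14-fold, with a limma adjusted p of 0.0498 that is close to the threshold. The change was 0.94 within set 1, 1.27 within set 2 and 1.35 with the array set as a block. Genes of glutathione, thioredoxin and NRF2 targets had changes of both signs. Of 48 tested, 4, Gsr among them, lay higher and 4 lower at an unadjusted p under 0.05. Txn1, the cytosolic thioredoxin, had a change of -1.89 ± 0.55 (adjusted p = 0.215) and Gstm5, a glutathione transferase, one of -0.92 ± 0.32 (adjusted p = 0.298).

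Plet1, a surface protein of placenta and of hair follicle progenitors, had levels of 2.55, 0.92, 0.27, 0.05 and 0.03 in carcinomas 1 to 5, and no value in carcinoma 6. In 9 high-risk papillomas its lowest level was -3.69, its median -1.53 and its highest -0.46. Carcinoma 1 stood highest and the groups did not overlap. Plet1 rose by 2.51 ± 0.46 on the log2 scale (5.7-fold, limma adjusted p = 0.0288).

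Ppbp, the platelet basic protein whose fragments attract neutrophils, had levels of 3.71, 3.21, 3.11 and 2.11 in carcinomas 1 to 4. In the 6 high-risk papillomas of sets 1, 3 and 4 its lowest level was 0.45, its median 0.95 and its highest 1.87. Both carcinomas and all 4 papillomas of set 2 were empty for this probe. The log2 change was 2.02 ± 0.31 (4.06-fold, limma adjusted p = 0.0143), and the closest tumours were carcinoma 4 and papilloma 10. Normal skin, at -0.53 ± 0.28 (SD, n = 5), and low-risk papillomas, at 0.36 ± 0.43 (SD, n = 9), lay below both groups.

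Lce1e encodes a late cornified envelope protein of the outermost epidermis. Its level was 3.75, 4.24, 2.12 and 4.33 in carcinomas 1 to 4. In 6 high-risk papillomas it had a lowest level of 5.74, a median of 7.34 and a highest of 8.71, so each carcinoma lay below each papilloma. It fell by 3.73 ± 0.61 on the log2 scale (limma adjusted p = 0.0143), a size of 13.3-fold. Array set 2 held no value for it. Low-risk papillomas, at 5.41 ± 0.98 (SD, n = 9), and normal skins, at 4.37 ± 0.57 (SD, n = 5), lay between the means of the carcinomas and the high-risk papillomas.

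Ltb4r1, the high-affinity receptor of the neutrophil attractant leukotriene B4, lay at -0.69, -0.04, -0.45 and -0.55 in carcinomas 1 to 4. The 6 high-risk papillomas had a lowest level of 0.83, a median of 3.41 and a highest of 6.00, and the 2 highest were papillomas 3 and 4 of set 3. It fell by 3.86 ± 0.68 (limma adjusted p = 0.0288), and by 1.81 without the papillomas of set 3. The carcinomas were near the normal skins, which averaged 0.04 ± 0.15 (SD, n = 5). No test of carcinomas against normal skin is given here.

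Irak1, a kinase that carries signals from interleukin-1 and Toll-like receptors, had a lowest level of -1.19, a median of -0.10 and a highest of 0.69 in the 6 carcinomas. The 9 high-risk papillomas had 1.04, 1.53 and 2.34, without overlap. The 2 highest carcinomas were 5 and 6, those of set 2. Irak1 fell by 1.65 ± 0.33 (limma adjusted p = 0.0498), by 2.78 within set 1 and by 0.78 within set 2. The probe with no gene name lay between -0.14 and 0.08 in carcinomas 1 to 4 and between 1.26 and 4.20 in 6 high-risk papillomas (log2 change -2.38).

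**Figure D2:**
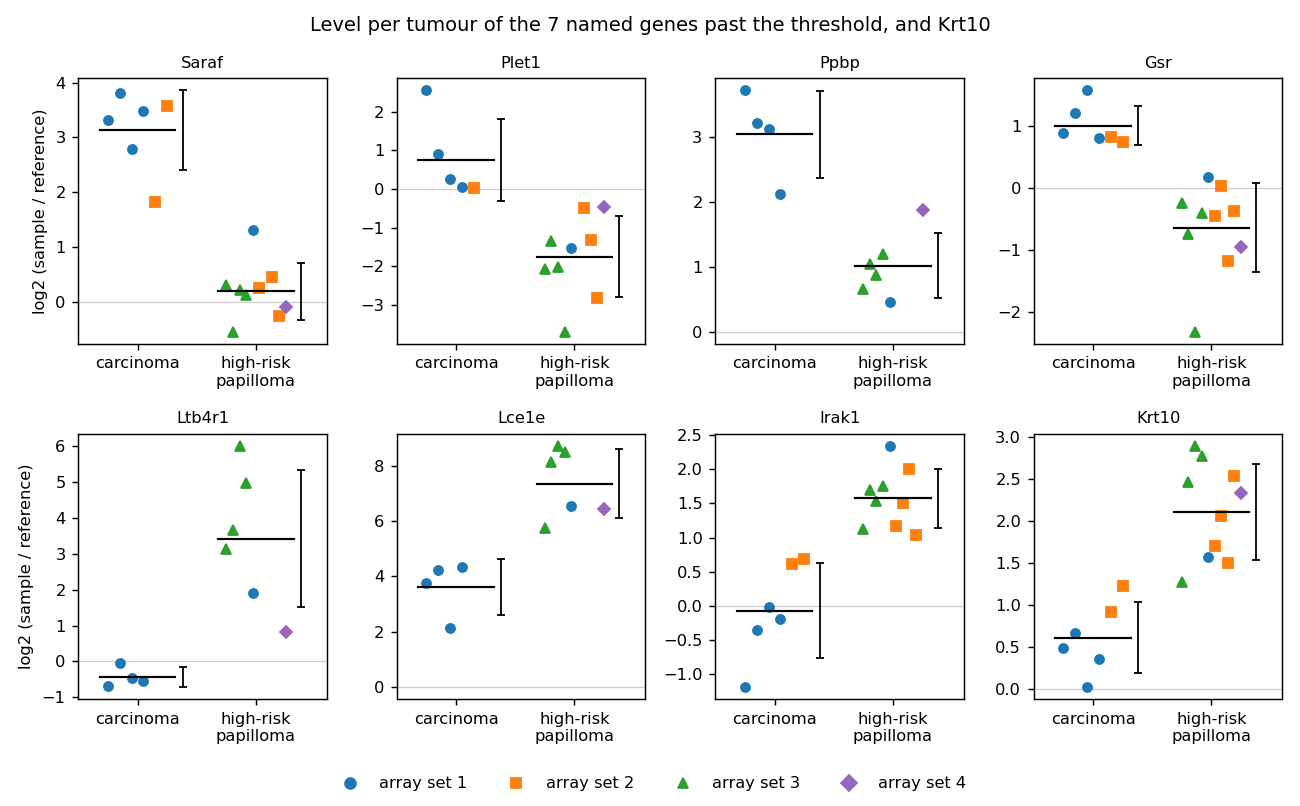
Level of the 7 named genes past the threshold and of Krt10 in each tumour (log2 of sample over reference), carcinomas left and high-risk papillomas right. Points are tumours marked by array set, lines are means and bars are SD. The genes were chosen by their difference in these same values, and the groups do not overlap in any of the 8 panels. Ppbp, Ltb4r1 and Lce1e have no points from set 2.

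Each of the 7 genes had 1 probe on the array. The calls rested on few tumours and on the filter. Ppbp, Lce1e, Ltb4r1 and the probe with no gene name had values in only 4 carcinomas and 6 high-risk papillomas. They passed the filter through the low-risk papillomas and normal skins. With the filter applied to the 2 tumour groups only, they were not tested and 1 probe was called. With the array set as a block no probe was called (451 at an unadjusted p under 0.05), nor without the 4 papillomas of set 3 (708 at that p). Leaving out carcinoma 2, carcinoma 3 or high-risk papilloma 2 also left 0 calls by limma (1388, 1459 and 1558 probes at an unadjusted p under 0.05), while leaving out high-risk papilloma 7 gave 35. Without carcinoma 4 or high-risk papilloma 4 the count was 2, and without high-risk papilloma 1 it was 4. Without carcinoma 1 or high-risk papilloma 3 it was 5, without carcinoma 5 it was 16 and without high-risk papilloma 5 it was 21. Without carcinoma 6 it was 10, 7 of them among the 8 of the main fit. The log2 changes of the 7 genes kept their sign in every alternative that could be fitted. Their values did not overlap between the groups, so fits that leave out tumours or use 1 array set could not turn the sign. Ppbp, Lce1e and Ltb4r1 had no values in set 2. Over the alternatives Saraf lay between 2.03 and 3.78, Ppbp between 1.80 and 2.94, Plet1 between 1.57 and 2.89 and Gsr between 0.94 and 2.02. The genes that fell had wider ranges, Lce1e between -4.16 and -1.08, Ltb4r1 between -4.88 and -1.81 and Irak1 between -2.78 and -0.78. Lce1e had its smallest changes after quantile normalization (-1.08, adjusted p = 0.284) and scale normalization (-1.39, adjusted p = 0.317).

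**Figure D3:**
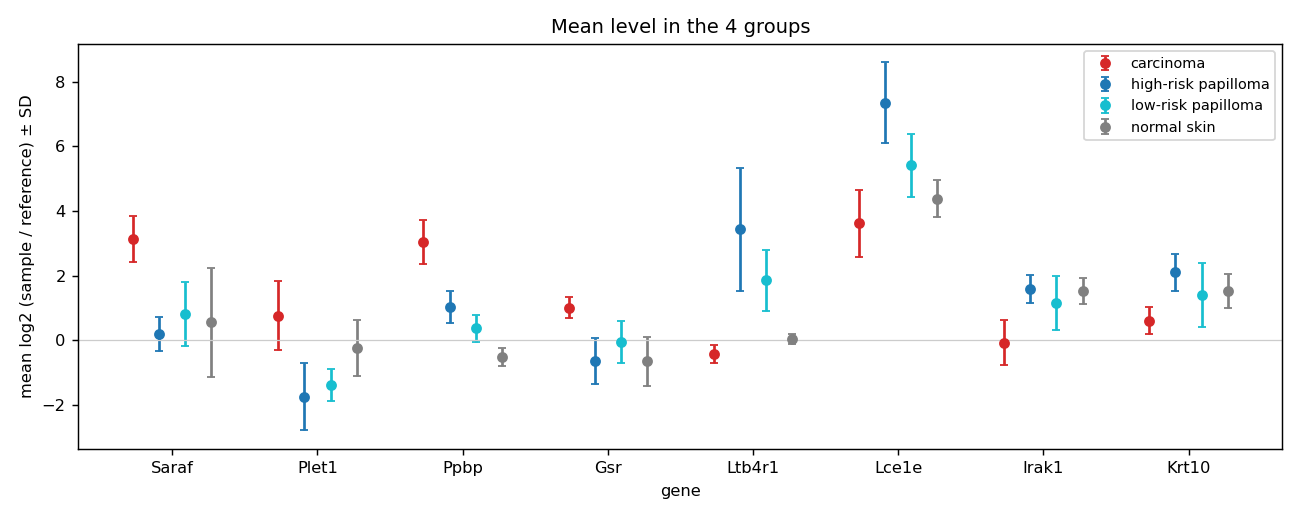
Mean level (log2 of sample over reference) with SD of the 7 named genes past the threshold and of Krt10 in carcinomas, high-risk papillomas, low-risk papillomas and normal skins. Ppbp averaged 3.04 in carcinomas, 1.01 in high-risk papillomas, 0.36 in low-risk papillomas and -0.53 in normal skin, whereas Lce1e was highest in high-risk papillomas, at 7.34.

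Of 8656 probes with a value in all 16 tumours, 5 (0.0578%) had every carcinoma above every high-risk papilloma and 12 (0.139%) had every carcinoma below. Above lay Gsr, Nr4a1, 2210408I21Rik, Slc14a2 and 1 probe with no gene name. Nr4a1, an orphan nuclear receptor induced by growth signals, lay between -0.19 and 1.03 in carcinomas against a median of -0.45 and a highest level of -0.30 in papillomas (log2 change 0.71 ± 0.22, limma adjusted p = 0.233). Slc14a2, a urea transporter, had a change of 1.21 ± 0.44 (adjusted p = 0.32) and 2210408I21Rik one of 1.39 ± 0.38 (adjusted p = 0.178). Among the 12 below were Krt10 and Cish, a feedback inhibitor of cytokine signalling through STAT5. Cish lay between -0.34 and -0.14 in carcinomas and between 0.00 and 0.69 in papillomas, and its change was -0.60 ± 0.18 (adjusted p = 0.215). The others with a gene name were Ttpal (-1.04), Ntrk3, a neurotrophin receptor (-0.66), Rassf4 (-0.52), Prss32, a serine protease (-0.68), Cd5l (-0.62) and Baz1b (-0.47), and 4 probes had none, each with an adjusted p above the threshold.

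Among named probes measured in every tumour and with an unadjusted p under 0.01, Ceacam1, an adhesion molecule of epithelia, had the largest positive change at 3.17 ± 0.90 (adjusted p = 0.196), with levels of -0.39, 1.70 and 3.50 in carcinomas and -8.62, -0.21 and 0.66 in high-risk papillomas (lowest, median, highest). Its change was -0.04 within set 2. The next were Kcnh5, a potassium channel (3.09), 1700049E22Rik (2.00), Pcp2 (1.84), Psca, prostate stem cell antigen (1.83), Gpd1, a glycerol-phosphate dehydrogenase (1.78), Igtp, an interferon-induced GTPase (1.77), Gsr, Ctsl, the protease cathepsin L (1.62), Zdhhc16 (1.56), Pgs1 (1.52) and Hao2 (1.51). Adjusted p-values of those other than Gsr lay above the threshold, the lowest at 0.116.

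The largest negative change was that of Plg, the precursor of plasmin (-3.66 ± 1.10, adjusted p = 0.215). High-risk papilloma 2 stood at 12.7 for Plg, with the next papilloma at 7.17. Sppl2b had -2.38, Calm4, a calmodulin-like protein of the epidermis, -2.08, and Aloxe3, a lipoxygenase of the skin barrier, -1.98. Below these came 1700023C21Rik (-1.82), Drap1 (-1.80), Cyp4f14 (-1.77), the nucleotide receptor P2ry6 (-1.76), Lmod2 (-1.67), the cytokine Lif (-1.66), Zcchc9 (-1.64) and the chaperone Hspa8 (-1.59). Lmod2, which nucleates actin in heart and skeletal muscle, came nearest to the threshold, with an adjusted p of 0.0783. It lay between -0.04 and 1.52 in carcinomas and between 1.28 and 3.67 in high-risk papillomas. Of 31 skeletal muscle genes, 1 lay higher and 1 lower at an unadjusted p under 0.05, and the median change was -0.01. Lif had a change of -0.03 with the array set as a block and of 0.03 within set 2.

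The keratinocyte maturation genes had mostly negative changes, though only Lce1e passed the test. Of 25 genes of terminal differentiation and the cornified envelope 12 lay lower and 0 higher at an unadjusted p under 0.05, beside 5.79% and 4.7% of all probes. The same shares apply to the counts at that p in every other list. The median change was -0.94, beside -0.01 over all probes. Krt10, the keratin of the first suprabasal layers, lay at 0.02, 0.58 and 1.22 in carcinomas and at 1.27, 2.19 and 2.89 in high-risk papillomas (lowest, median, highest). The highest carcinoma, number 6, was just below the lowest papilloma, number 1. The change was -1.50 ± 0.35 with a limma adjusted p of 0.116, and it was -1.18 within set 1 and -0.88 within set 2. Rptn, repetin, had -3.39 ± 0.68 (adjusted p = 0.0618, n = 4 and 6) and Ppl, the scaffold protein periplakin, -2.72 ± 0.80 (adjusted p = 0.224, n = 4 and 5). Krt1, which pairs with Krt10, had -1.76 (adjusted p = 0.261), Lor, loricrin, -0.94 (adjusted p = 0.45) and Klk7, a protease that sheds cornified cells, -1.63 (adjusted p = 0.414). Without the papillomas of set 3 Krt1 had -1.89, Lor -0.55 and Klk7 -0.91.

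Averaged over the 11 members measured in every tumour, the level of this list was 1.08, 1.85 and 2.43 in carcinomas (lowest, median, highest) and 0.83, 2.98 and 3.98 in high-risk papillomas. The papillomas of set 3 lay at 2.91 to 3.98 and those of set 2 at 0.83 to 2.12, so the groups overlapped through set 2 alone. The median change of the list was -1.32 within set 1, -0.00 within set 2, -0.55 without the papillomas of set 3 and -1.09 without carcinoma 6.

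The late cornified envelope genes lie in a single gene cluster. Of 11 tested, 5 were lower at an unadjusted p under 0.05, beside 5.79% of all probes. All 11 had a negative change, beside 50.8% of all probes, with a median of -1.29. Beside Lce1e, Lce1a2 had -1.84 ± 0.51 (adjusted p = 0.178) and Lce1b -2.24 ± 0.82 (adjusted p = 0.324). Carcinoma 4 stood apart for Lce1b at 4.33, with the next carcinoma at 1.63. Probes of these genes may share sequence, which was not tested. The list's median was -2.95 within set 1, 0.72 within set 2 and -0.39 without the papillomas of set 3. Of 13 small proline-rich genes 2 were lower at that p, Sprr2b (-1.94 ± 0.47, adjusted p = 0.133) and Sprr2h (-2.34 ± 0.94, adjusted p = 0.383). The median change of the 13 was -0.36 over all tumours, -0.03 without the papillomas of set 3, -0.15 with the array set as a block, -1.15 within set 1 and 0.57 within set 2. It was -0.14 after scale normalization and -0.00 after quantile normalization.

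The windows around the transcription start of 3 of these genes are shown because Krt10 did not overlap between the groups, Lce1e passed the test and Rptn came close to it. They are from RefSeq on GRCm38.p6, 300 bases each around the start, 5′ to 3′ on the gene's strand. Capitals mark TATAAA, the TATA motif, and TGANTCA, a loose form of the AP-1 motif TGA(C/G)TCA that takes any middle base. The stricter form was not counted. Both strands were searched, and the 2 motifs do not overlap in these windows. Any further window of these genes on another chromosome was not shown, but was kept in the shares given below.
Krt10, chr11:99389315-99389614, minus strand: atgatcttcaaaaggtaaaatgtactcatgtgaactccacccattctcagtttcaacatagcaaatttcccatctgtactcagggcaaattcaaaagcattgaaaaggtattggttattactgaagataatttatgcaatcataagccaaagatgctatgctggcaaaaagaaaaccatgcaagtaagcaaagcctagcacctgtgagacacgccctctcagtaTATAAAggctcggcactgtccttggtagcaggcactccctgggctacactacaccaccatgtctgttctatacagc
Lce1e, chr3:92709025-92709324, minus strand: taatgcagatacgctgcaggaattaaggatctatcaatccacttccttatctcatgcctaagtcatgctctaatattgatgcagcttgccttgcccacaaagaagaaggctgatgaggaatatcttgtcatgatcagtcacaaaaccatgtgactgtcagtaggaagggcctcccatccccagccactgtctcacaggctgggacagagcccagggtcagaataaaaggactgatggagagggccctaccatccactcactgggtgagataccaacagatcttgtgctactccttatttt
Rptn, chr3:93393449-93393748, plus strand: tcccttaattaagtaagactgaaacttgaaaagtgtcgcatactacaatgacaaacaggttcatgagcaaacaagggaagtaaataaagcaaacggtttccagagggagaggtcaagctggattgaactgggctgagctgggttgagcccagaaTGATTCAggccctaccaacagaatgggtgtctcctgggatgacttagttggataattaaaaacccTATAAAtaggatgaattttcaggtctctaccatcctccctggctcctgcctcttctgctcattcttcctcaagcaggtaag
Krt10 held 1 TATA motif, and Lce1e held neither sequence in these letters. Rptn held 1 TATA motif and 1 match to the loose AP-1 form, TGATTCA, which is outside the stricter form. Among all 32851 RefSeq windows, 7.81% held the loose AP-1 form and 13.6% the TATA motif. Of the 26 terminal differentiation genes on the array 17 matched the table with 20 windows. Of these, 8 (40.0%) held the loose AP-1 form and 7 (35.0%) the TATA motif. Of 12 windows of late cornified envelope genes 0 held the loose AP-1 form and 3 (25.0%) the TATA motif. These are matches of letters and not sites of binding.

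Genes of the activated and of the basal epidermis had negative medians as well. These were smaller after scale and quantile normalization, at -0.17 and -0.13 for the activated and at -0.12 and -0.15 for the basal list. Of 18 genes of activated epidermis, which appear in wounds and hyperplasia, 6 were lower and 1 higher at an unadjusted p under 0.05. S100a9, a calprotectin subunit, had -1.84 ± 0.55 (adjusted p = 0.224) and Krt16, a keratin of hyperproliferation, -1.70 ± 0.69 (adjusted p = 0.395), both with n = 4 and 6. The other calprotectin subunit, S100a8, had -1.08 ± 0.69 (adjusted p = 0.582, n = 6 and 10). Its change was -0.09 with the array set as a block and 1.32 within set 2. Krt16 was 0.51 within set 1. The 1 gene higher at an unadjusted p under 0.05 was Ltf, lactoferrin, at 2.81 ± 1.15 (adjusted p = 0.391). Ltf lay between -0.45 and 3.06 in 5 carcinomas and between -3.73 and 1.39 in 10 papillomas. Of the 18 changes 12 were negative and 6 positive, beside 50.8% and 49.2% of all probes. The list's median was -0.91, and it was -0.26 without the papillomas of set 3, -0.27 with the array set as a block and 0.43 within set 2.

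Of 13 basal keratinocyte and hemidesmosome genes 3 were lower at that p and the median was -0.41. Col17a1, the transmembrane collagen of hemidesmosomes, had -2.30 ± 0.85 (adjusted p = 0.333), Cdh3, P-cadherin, -1.16 ± 0.47 (adjusted p = 0.386) and Lamb3, a laminin-332 chain, -0.83 ± 0.37 (adjusted p = 0.434). Without the papillomas of set 3 Col17a1 was at -0.53 and the median of the list at 0.10. A list of keratins of simple and internal stratified epithelia with other epithelial genes had a median of 0.77 over 12 genes, with 3 higher and 1 lower at that p. The median was 0.36 without the papillomas of set 3, 0.17 with the array set as a block and 0.06 within set 2. Krt4, a keratin of internal stratified epithelia, had 1.23 ± 0.46 (adjusted p = 0.331), Krt19 had 1.83 ± 0.73 (adjusted p = 0.389) and the tight junction gene Cldn7 1.52 ± 0.61 (adjusted p = 0.389). The change of Cldn7 was -0.17 with the array set as a block. The lower gene was Muc1, a surface mucin, at -0.85 (adjusted p = 0.412), and the keratins Krt18 and Krt80 had -0.62 (adjusted p = 0.559) and -0.74 (adjusted p = 0.636). Krt8 had 0.95 ± 0.90 (adjusted p = 0.729), and -0.02 with the array set as a block.

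Genes of macrophages and stroma had mostly positive changes, 20 of 25 in the macrophage list and 28 of 34 in the matrix list. The share over all probes was 49.2%, and no gene of either list passed the test. Of the 25 macrophage and monocyte genes 8 were higher and 0 lower at an unadjusted p under 0.05, beside 4.7% and 5.79% of all probes. The median change was 0.51. Lyz1, a lysozyme of macrophages and Paneth cells, lay between -1.36 and 1.53 in 6 carcinomas with a median of -0.12, and between -4.39 and -0.14 in 8 high-risk papillomas with a median of -2.60. The groups overlapped, and the change was 2.37 ± 0.48 with a limma adjusted p of 0.0542. Plac8 had 2.11 ± 0.52 (adjusted p = 0.132) and Tyrobp, a signalling adaptor of myeloid cells, 1.15 ± 0.34 (adjusted p = 0.22). Lyz2 had 1.97 (adjusted p = 0.354), Msr1, a scavenger receptor, 1.05 (adjusted p = 0.289) and Aif1 1.01 (adjusted p = 0.362). Without the papillomas of set 3 Lyz2 had 1.19, Msr1 0.82 and Aif1 0.68, and Lyz2 had -0.72 within set 2.

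The mean level of the 10 macrophage genes measured in all tumours was -0.47, -0.15 and 1.00 in carcinomas (lowest, median, highest) and -2.07, -0.61 and -0.28 in high-risk papillomas. Carcinoma 2 stood above the other carcinomas, the next of which lay at 0.06, and the papillomas of set 3 lay lowest. The list's median was 0.59 within set 1, 0.12 within set 2, 0.26 without the papillomas of set 3 and 0.63 without carcinoma 6. Of 17 neutrophil genes 2, Csf3r and Ltf, were higher at that p and 1, S100a9, lower. Csf3r, the receptor of the neutrophil growth factor G-CSF, had 1.21 ± 0.38 (adjusted p = 0.254).

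Of 34 collagen and fibroblast matrix genes 9 were higher and 0 lower at that p, beside 4.7% and 5.79% of all probes. The median change was 0.48. Tnc, the matrix protein tenascin C, lay at 0.32, 1.84 and 4.40 in carcinomas and at 0.00, 0.73 and 1.55 in high-risk papillomas (lowest, median, highest), so that the groups overlapped. Its change was 1.33 ± 0.44 (adjusted p = 0.279). Postn, periostin, had 1.47 ± 0.46 (adjusted p = 0.233) and Pcolce, an enhancer of collagen maturation, 1.23 ± 0.41 (adjusted p = 0.279). Dcn, decorin, had the largest change of the list, 3.04 (adjusted p = 0.298). High-risk papilloma 3 stood at -10.1 for Dcn, with the next papilloma at -4.58. The median of the list was 0.73 within set 1, -0.14 within set 2 and 0.35 without the papillomas of set 3.

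Of 33 matrix proteases and inhibitors 5 were higher and 2 lower. Ctsl had 1.62 ± 0.39 (adjusted p = 0.119) and Timp2, a metalloproteinase inhibitor, 0.87 ± 0.31 (adjusted p = 0.308), while Serpinb5, an epithelial serpin, had -1.91 ± 0.63 (adjusted p = 0.279). Mesenchymal transition genes had a median of 0.42 over 21 genes with 2 higher and 1 lower, and -0.02 with the array set as a block. Endothelial genes (24 tested) had a median of 0.07, mast cell genes (15) 0.11, T cell genes (24) -0.04, and B cell and plasma cell genes (14) -0.02. Adipocyte genes had 3 of 19 higher, among them Adipoq, adiponectin, at 2.59 ± 0.82 (adjusted p = 0.261). Adipoq lay between -0.72 and -0.51 in 4 carcinomas and between -5.58 and -0.87 in 6 papillomas, below the reference RNA in all of them. The part of these cell types in the keratinocyte results was not tested.

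**Figure D4:**
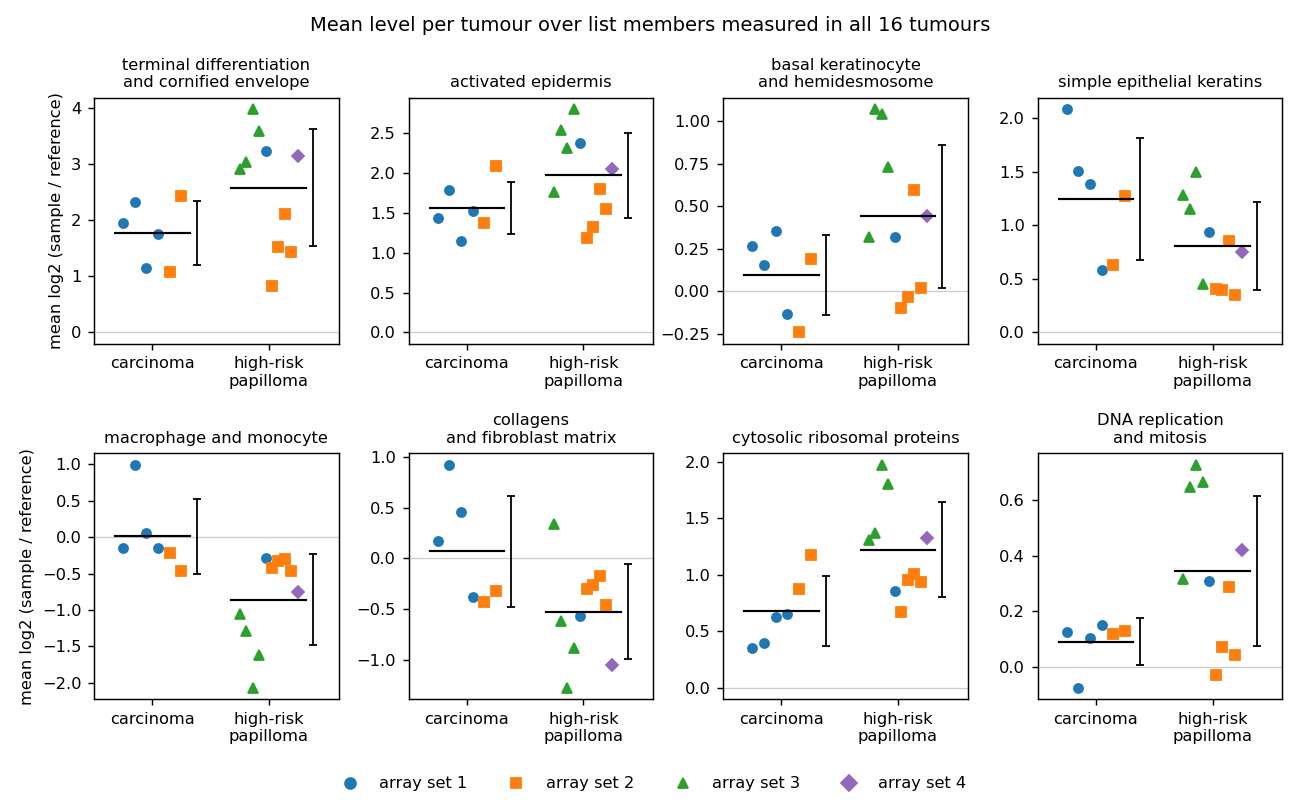
Mean level per tumour (log2 of sample over reference) of 8 gene lists, over members measured in all 16 tumours, carcinomas left and high-risk papillomas right. Points are tumours marked by array set, lines are means and bars are SD. The macrophage list lies between -0.47 and 1.00 in carcinomas and between -2.07 and -0.28 in high-risk papillomas, and its 4 lowest points are the papillomas of set 3.

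In the lists of inflammatory signals Ppbp, Ltb4r1 and Irak1 passed the test and no other gene. Chemokines and their receptors had a median of -0.01 over 45 genes, with 5 higher and 6 lower at an unadjusted p under 0.05. Cxcl14, a chemokine made by epithelia, had 0.74 ± 0.29 (adjusted p = 0.362) and Ccl4, an attractant of macrophages, 0.95 ± 0.37 (adjusted p = 0.375). Of 20 interleukin-1 family genes 2 were higher and 1, Irak1, lower. Tollip, an adaptor that restrains this pathway, had 1.45 ± 0.39 (adjusted p = 0.162) and the NF-kappaB inhibitor Nfkbia 0.87 ± 0.32 (adjusted p = 0.331). Of 24 eicosanoid genes, 1 was lower, Ltb4r1, and 1 higher, Ptger4, a receptor of prostaglandin E2, at 1.38 ± 0.42 (adjusted p = 0.224). Ptgs2, the inducible cyclooxygenase, had 0.52 ± 0.26 (adjusted p = 0.496). Alox15, a 12/15-lipoxygenase of the epidermal lipid list, had 1.28 ± 0.31 (adjusted p = 0.133). Of 31 interferon and MHC class I genes 3 were higher, among them Igtp and Irf7 (1.35 ± 0.44, adjusted p = 0.279), and MHC class II genes (16 tested) had a median of -0.09.

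No gene of growth signalling or proliferation passed the test. Of 27 genes of EGFR, Ras and their feedback 4 were lower and 2 higher. Egfr itself lay at 0.79, 1.24 and 1.48 in carcinomas and at 1.21, 1.90 and 2.73 in high-risk papillomas (lowest, median, highest), with a change of -0.76 ± 0.23 (adjusted p = 0.215). The feedback inhibitors Dusp4 and Errfi1 had 0.57 ± 0.22 (adjusted p = 0.358) and 0.90 ± 0.37 (adjusted p = 0.396). The change of Egfr was -0.07 within set 1. Of 42 DNA replication and mitosis genes 5 were lower and 1 higher, with a median of -0.21, of -0.07 with the array set as a block and of -0.01 within set 2. Racgap1, needed for cell division, had -1.40 ± 0.32 (adjusted p = 0.116), the centromere histone Cenpa -1.29 ± 0.31 (adjusted p = 0.116), the replication helicase subunit Mcm5 -0.63 ± 0.20 (adjusted p = 0.229) and the proliferation marker Mki67 -1.23 (adjusted p = 0.357). Mki67 had -0.44 without the papillomas of set 3, -0.54 with the array set as a block and -0.15 within set 2. The mean level of this list was -0.08 to 0.15 in carcinomas and -0.03 to 0.73 in high-risk papillomas. The median over 26 genes of cyclins, CDK inhibitors and p53 was 0.01.

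Transcription factors and growth factor targets were mixed. Of 20 AP-1 and immediate early genes 2 were lower and 1, Nr4a1, higher. Klf4, which drives epidermal barrier formation, had -1.45 ± 0.47 (adjusted p = 0.261). Of 29 TGF-beta and BMP genes 3 were higher and 3 lower. The signal mediator Smad4 had 0.93 ± 0.25 (adjusted p = 0.17) and the matrix-associated target Ccn2 1.08 ± 0.32 (adjusted p = 0.215), whereas Id1, a target of BMP signals, had -0.73 ± 0.28 (adjusted p = 0.345). Among hair follicle genes 0 of 19 were higher and 3 lower, with Gata3 at -1.06 ± 0.32 (adjusted p = 0.221) and Foxn1 at -1.75 ± 0.66 (adjusted p = 0.349), both factors of follicle differentiation. Of 38 Wnt and stem cell genes 2 were higher, Plet1 among them, and 3 lower.

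Most genes of the cytosolic ribosome had a negative change. Of 58 cytosolic ribosomal protein genes 56 had a negative change, beside 50.8% of all probes, and the median was -0.51. At an unadjusted p under 0.05, 19 were lower and 0 higher, beside 5.79% and 4.7% of all probes. Rps3a1 had -1.18 ± 0.34 (adjusted p = 0.209), Fau -0.998 ± 0.305 (adjusted p = 0.224) and Rps28 -0.92 ± 0.30 (adjusted p = 0.264). Over 34 members the mean level was 0.36, 0.64 and 1.17 in carcinomas and 0.67, 1.16 and 1.97 in high-risk papillomas (lowest, median, highest). The papillomas of set 3 lay at 1.31 to 1.97, and the median change was -0.24 without them, -0.25 within set 1 and 0.11 within set 2. Of 56 oxidative phosphorylation genes 12 were lower and 1 higher, with a median of -0.25 and of -0.04 with the array set as a block. Cox7a2, a cytochrome oxidase subunit, had -0.79 ± 0.26 (adjusted p = 0.279). Proteasome genes (34 tested) had a median of -0.00, glycolysis and hypoxia genes (29) 0.15 and endoplasmic reticulum stress and chaperone genes (26) 0.27. Of the remaining lists, desmosome and adherens junction genes (13) had a median of -0.11, epidermal lipid genes (15) 0.00, sebaceous genes (17) 0.01, and erythroid and platelet genes (15) -0.08. The desmosome median turned positive after scale normalization (0.26) and quantile normalization (0.39).

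**Figure D5:**
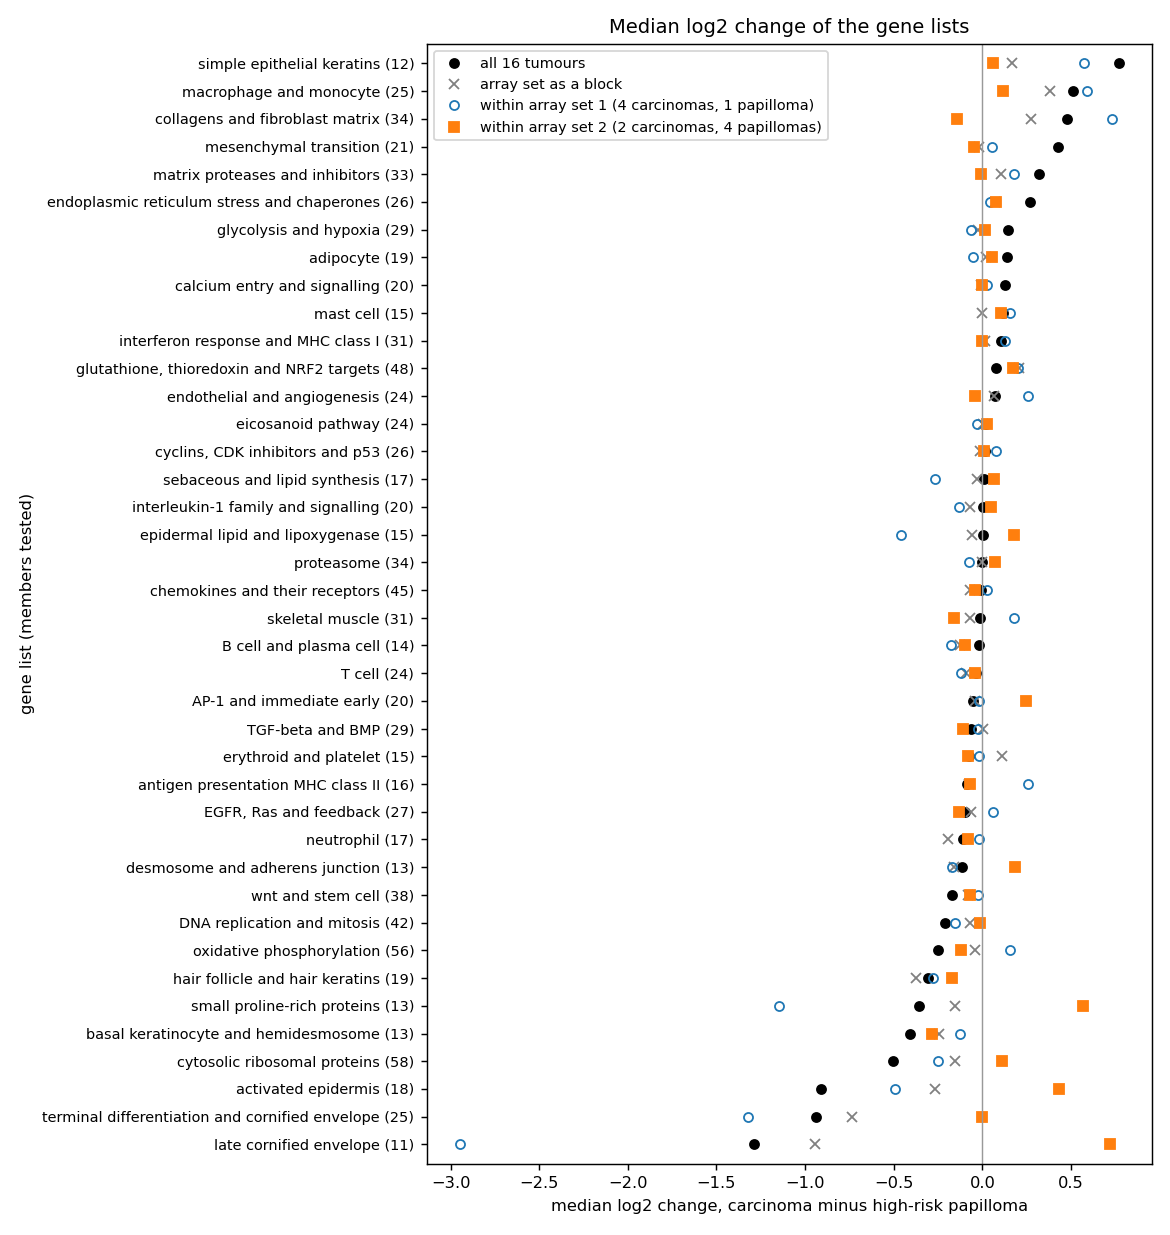
Median log2 change (carcinoma minus high-risk papilloma) of the 40 gene lists, with the number of members tested, over all 16 tumours (black), with the array set as a block (grey crosses) and within sets 1 and 2. The late cornified envelope genes lie at -1.29 over all tumours, at -2.95 within set 1 and at 0.72 within set 2.

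Over the 40 lists the median change was positive in 18 and negative in 22. With the array set as a block 27 of the 40 medians lay closer to 0, and without the papillomas of set 3 this held for 23. The medians within sets 1 and 2, which share no tumour, had the same sign in 16 of 40 lists. Set 1 holds only 1 high-risk papilloma and set 2 only 2 carcinomas, one of them the array close to a normal skin.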

How the data were processed

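The authors deposited log ratios of the 2 channels, read here as log2, for 21997 probes. The labels state neither the log base nor which channel is on top. A base of 2 was assumed, since ratios as large as 13.5 exceed what a scanner could give in another usual base, and Cy5 over Cy3 as the likely direction because skin genes then lie above the reference, so the sign was turned where the sample was in Cy3. How the authors normalized and filtered spots is not given in the sources used here. Each array was centred on its median. The dye-swapped array of a low-risk papilloma was averaged with the array of the same tumour. Gene names came from GEO's platform annotation, 16076 with 1 symbol, 288 with several and 5633 with none, and 1 probe per symbol was kept, the one with most values. A probe was tested when measured in at least 3 samples of each of 4 groups and in 70% of the 31 samples. Missing values were left out probe by probe.

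A single linear model of 4 groups was fitted with limma (version 3.58.1, R version 4.3.3), with Benjamini-Hochberg adjustment over all probes and a threshold of 0.05. Array properties were compared with exact permutation tests in scipy 1.17.1. Array sets are clusters of the pattern of empty probes, cut at 5 by choice. On simulated data with 18901 probes, the fit called 84 of 100 changed by 2 on the log2 scale and 27 of 100 changed by 1, with 5 false calls. These counts describe the simulated data only and do not give the power in these tumours. Genes named are all those called, the 12 largest changes in each direction at an unadjusted p under 0.01 among probes measured in all tumours, up to 3 per list with the smallest p, and up to 6 per direction without overlap. Krt1, Lor, Klk7, Lyz2, Msr1, Aif1, Dcn, Mki67, Muc1, Krt18, Krt80, Baz1b and Cd5l were named after their values were seen. S100a8 and Krt8 were also named then and are outside the genes counted for sign below. The members and the gene lists were chosen with earlier results of these data known, so no list is independent evidence. Replicate numbers did not pair the samples. The median r was 0.01 over 6 same-numbered pairs of a carcinoma and a papilloma, and -0.0003 over 54 pairs of different number. These r cannot be those of the plain levels, which correlated at 0.33 or more between any carcinoma and any high-risk papilloma.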

Additional observations from a re-analysis of the deposited data

Results flagged for a closer look

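Single tumours stood apart from the rest of their group in 13 of 292 sets of values examined with Dixon's test at its 95% critical value, where chance alone flags about 1 in 20. Among genes, high-risk papilloma 2 was high for Plg at 12.7 and for Csf3r at 1.41 (next 0.47), and high-risk papilloma 3 was high for Ntrk3 at 1.46 (next 0.81) and low for Dcn at -10.1 (next -4.58). Among carcinomas, carcinoma 4 was high for Lce1b at 4.33 and for Krt1 at 2.36 (next 0.77), and carcinoma 3 was low for S100a9 at 1.75 (next 3.46). Among mean levels of lists, carcinoma 1 was high for the interleukin-1 family at 1.19 (next 0.48) and low for mast cell genes at -0.56 (next -0.14). Carcinoma 2 was high for macrophage genes at 1.00 (next 0.06) and low for DNA replication and mitosis at -0.075 (next 0.10). High-risk papilloma 1 was low for mast cell genes at -2.17 (next -1.06), and high-risk papilloma 3 was low for calcium entry and signalling at -0.53 (next -0.22). No explanation of these values was tested.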

How the results depend on the processing

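The count of called probes was the least stable result. Against 8 called, quantile normalization gave 89 and scale normalization 66, the robust fit 666 and array weights 150. Fewer were called with the probe filter on the 2 tumour groups (1), where Ppbp, Lce1e and Ltb4r1 were not tested. Probes measured in all samples gave 0 of 5583, with 691 at an unadjusted p under 0.05. A fit of the 2 tumour groups only gave 1, the array set as a block 0 and array set 2 alone 0 (1213 at that p). With the replicate block the count was 0 (3176 at that p), although the replicate numbers do not pair the tumours. Within array set 1 the count was 13, none of them among the 8. The block by database number gave 12, with all 8 among them. Of fits chosen after seeing the data, leaving out carcinomas 5 and 6 gave 53 (42 higher, 11 lower), leaving out the tumours of array set 2 gave 251 and those of set 3 gave 0. Leaving out 1 tumour gave 0 to 35. The 8 were called again in the robust fit, with array weights and without carcinoma 6 and normal skin 1, which gave 8 calls. At least 2 values per group, the mean of a gene's probes, the shared-code block, no centring and the swapped array left out gave counts within 1.5 times of 8 (6 to 9). The split at an unadjusted p under 0.05 was 889 higher and 1094 lower, against 1159 and 1522 after quantile normalization. List medians after scale and quantile normalization were -0.65 and -0.61 for terminal differentiation and -0.73 and -0.76 for late cornified envelope genes. For ribosomal genes they were -0.32 and -0.29, for macrophage genes 0.61 and 0.46 and for matrix genes 0.39 and 0.40.

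Of 103 genes named, S100a8 and Krt8 not counted, 21 turned sign in some fit. With the array set as a block this was Cldn7 (-0.17). Within set 1 it was Cldn7 (-0.13), Fau (0.010), Krt16 (0.51), Lamb3 (0.54) and Pgs1 (-0.072). Within set 2 it was Calm4 (0.82), Ceacam1 (-0.038), Csf3r (-0.0068), Cxcl14 (-0.040), Kcnh5 (-0.12), Klk7 (0.26), Krt80 (0.12), Lce1a2 (0.0085), Lif (0.03), Lyz2 (-0.72), Psca (-0.19), Rps28 (0.027), Sppl2b (0.31), Sprr2h (0.049), Timp2 (-0.092) and Zdhhc16 (-0.29). The 7 named calls were kept in 13 (Gsr) to 27 (Saraf) alternatives of the 34 to 37 that could be fitted. None turned sign, which their lack of overlap fixes in advance for fits that leave out tumours or use 1 array set. Probes without overlap numbered 19 after quantile and after scale normalization, and 17 to 44 without 1 tumour, the highest without high-risk papilloma 5, and 29 to 32 without carcinoma 1, 5 or 6 or high-risk papilloma 7, 9 or 10. The share of empty probes passed the test without carcinoma 6 (difference -10.1 percentage points, exact permutation p = 0.0107). The cause of these differences was not tested. The number of arrays limits the precision, and array set 1 with 1 high-risk papilloma gives no spread of its own for that group.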
